A study of Mus musculus with 2 samples.

Results

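The matrix metalloproteases (MMPs), the ADAMTS proteases, the ADAMTS-like proteins and the tissue inhibitors of metalloproteases (TIMPs) were described in a mouse sample. It is labelled as adipose tissue, the fat-storing tissue, and also held much RNA of epididymis markers. Members were taken by symbol alone: every gene named Mmp, Timp, Adamts or Adamtsl followed by a digit, with pseudogenes left out. The rule found 51 genes among the 43346 mouse genes of the deposited tables, namely 23 MMPs, 4 TIMPs, 19 ADAMTS proteases and 5 ADAMTS-like genes. Polyadenylated RNA came from male C57BL/6J mouse tissue at an age of 10 weeks, with no treatment or engineered allele named. There was 1 biosample, labelled as biological replicate 1, and it was sequenced as 2 technical libraries. Library 2 was performed in 2015, after the 2014 publication that the labels name, and library 1 is the earlier one. All values below therefore come from 1 biosample, spreads are technical, no condition was compared with another, and library and date cannot be told apart.

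MMPs and ADAMTS proteases are zinc enzymes that cut the proteins outside cells: collagens, elastin, fibronectin and the large proteoglycans. Most are made as inactive precursors whose propeptide must be removed, and TIMPs block the active enzymes by placing their first residue on the catalytic zinc. ADAMTS-like proteins share the non-catalytic domains of the ADAMTS proteases and have no protease domain. In fat, these genes are known for the turnover of the collagen cage around each adipocyte as the tissue expands and new vessels grow.

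The chemistry that sets protease and inhibitor apart can be read from the gene sequences, and the examples below are the highest MMPs by mean level and ADAMTS proteases chosen to show each kind of site. In an MMP or ADAMTS protease, 3 histidines hold the zinc and a glutamate beside the first histidine acts in catalysis. The search looked for codons of histidine and glutamate side by side, then histidine at the fifth and eleventh codon, in 33 coding bases, with all other codons free. It found the site in 23 of 23 MMPs, 19 of 19 ADAMTS proteases and 0 of 5 ADAMTS-like genes. In the lines below, capitals mark the 3 histidine codons, the glutamate codon and the eighth codon. Sequences were read 5′ to 3′ from the coding sequences of annotated transcripts, without introns, and coordinates are on the mm10 (GRCm38) genome.
Mmp7: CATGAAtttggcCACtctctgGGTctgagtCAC
Mmp14: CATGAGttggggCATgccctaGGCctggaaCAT
Mmp12: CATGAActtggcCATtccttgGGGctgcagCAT
Adamts5: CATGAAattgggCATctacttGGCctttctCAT
Adamts2: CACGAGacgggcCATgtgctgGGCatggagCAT
Adamts1: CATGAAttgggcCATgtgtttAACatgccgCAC
Adamts8: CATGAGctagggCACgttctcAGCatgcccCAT
The Mmp7 site lies at chr9:7697614-7697646 (plus strand, exon 5), the Mmp14 site at chr14:54437627-54437659 (plus strand, exon 5) and the Mmp12 site at chr9:7352914-7352946 (plus strand, exon 6). All 23 MMP sites were held by a single exon with glycine at the eighth codon. All 19 ADAMTS sites were split by an intron, so their coordinates span it: Adamts5 at chr16:85878015-85887826 (minus strand, exons 2 and 3), Adamts2 at chr11:50775403-50776134 (plus strand, exons 7 and 8), Adamts1 at chr16:85799191-85799545 (minus strand, exons 3 and 4) and Adamts8 at chr9:30952721-30953378 (plus strand, exons 3 and 4). The eighth codon of the ADAMTS sites was glycine in 13 genes, asparagine in 5 (Adamts1, Adamts4, Adamts9, Adamts15 and Adamts20) and serine in 1 (Adamts8).

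The inhibitors were searched for the start of the mature protein, a cysteine, any residue and a second cysteine, followed by the conserved proline, histidine, proline and glutamine codons. It was found in 4 of 4 TIMPs, in 27 coding bases of a single exon. Capitals mark the codons of the 2 cysteines, the first of which contacts the zinc of the protease.
Timp2: TGCagcTGCtccccggtgcacccgcaa
Timp3: TGCacaTGCtctcccagccatccccag
Timp4: TGCagcTGTgcgcctgcgcacccccag
Timp1: TGTagcTGTgccccaccccacccacag
These lie at chr11:118354986-118355012 (Timp2, minus strand), chr10:86300923-86300949 (Timp3, plus strand), chr6:115251665-115251691 (Timp4, minus strand) and chrX:20871111-20871137 (Timp1, plus strand), in the first exon except for Timp1, where it is exon 2.

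Library 2 held 19256809 expected counts and library 1 held 19954869. The adipose label was checked against markers, and all 10 adipocyte markers reached 1 TPM (read level per transcript length, brought to a common total per library) or more in both libraries, with a summed level of 15260 TPM in library 2 against 5236 TPM in library 1. All 9 epididymis markers were present as well, summing to 41040 TPM in library 2 against 36280 TPM in library 1, above the adipocyte sum in both. Testis germ cell markers (8 of 8 detected in both) summed to 1405 TPM in library 2 against 267 TPM in library 1. Macrophage markers (8 of 8 detected in both) summed to 838 TPM in library 2 against 278 TPM in library 1. Of 9 neutrophil markers, Mpo, Ngp and Ly6g were at 0 in both libraries, and Elane and Camp were also at 0 in library 1. The other 4 were above 1 TPM in both, but S100a8, S100a9 and Retnlg had only between 7 and 15 counts per library. Ltf had 73.3 TPM in library 2 against 18.5 TPM in library 1. It held most of the sum of the list, 82.35 TPM in library 2 against 23.45 TPM in library 1. The level of every member below is that of the whole sample. The share of a member's RNA that came from each cell type was not tested, and in bulk RNA fewer cells of a type and less RNA per cell cannot be told apart. Mitochondrial genes and their nuclear copies held 15.9% of all TPM in library 2 against 51.7% in library 1. TPM and the ratio of scaled counts can point in different directions, and each sentence below names its scale.

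The family was broadly present and its level was dominated by the inhibitors. Of 51 members, 24 reached 1 TPM in both libraries, 9 in library 2 alone, none in library 1 alone, and 18 in neither. Summed over all members the level was 821 TPM in library 2 against 458 TPM in library 1. The 4 TIMPs held 432 TPM in library 2 against 282 TPM in library 1 (357 ± 106 TPM, SD, n = 2 libraries). The 23 MMPs held 227 TPM in library 2 against 96.1 TPM in library 1 (162 ± 92.5 TPM, SD, n = 2). ADAMTS proteases summed to 125 TPM in library 2 against 70.95 TPM in library 1 (97.9 ± 38.1 TPM, SD, n = 2), and the ADAMTS-like genes to 37.1 TPM in library 2 against 9.23 TPM in library 1. TIMPs thus made up 52.6% of the family's TPM in library 2 and 61.5% in library 1, and 3 genes, Timp2, Timp3 and Timp4, held 51.3% in library 2 and 61.0% in library 1.

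**Figure D1:**
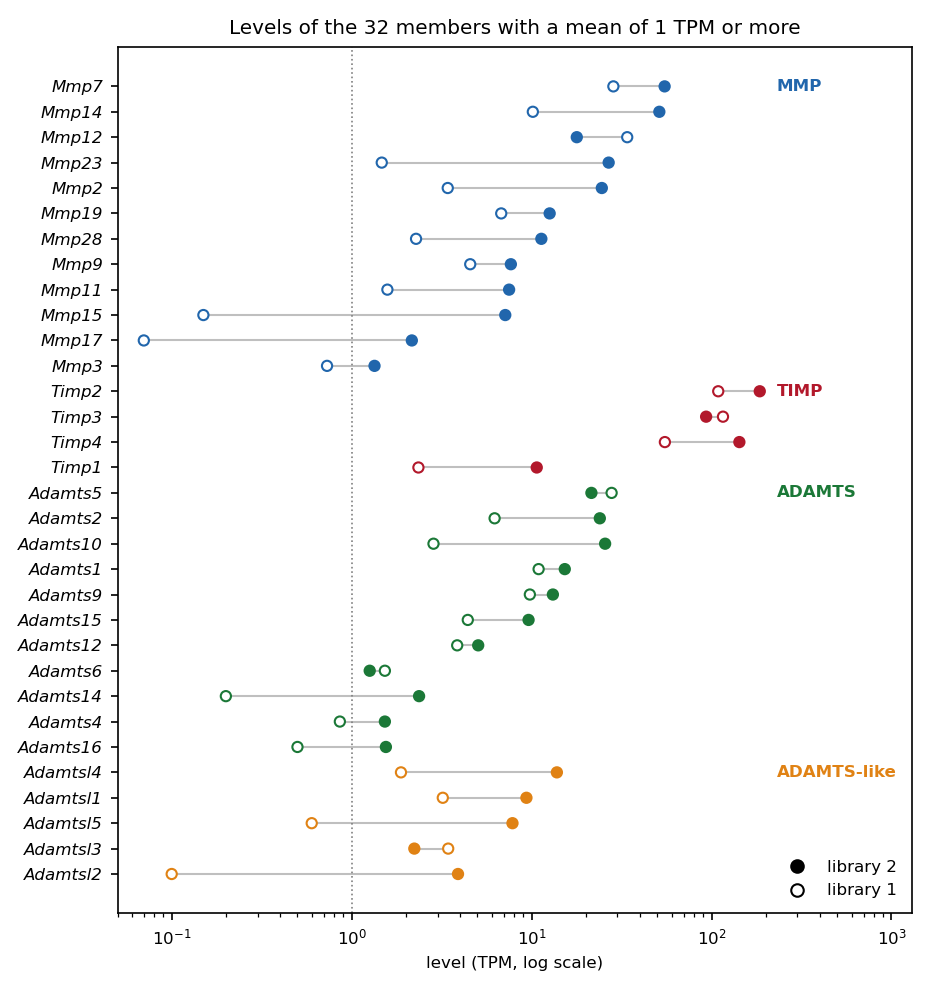
Level in TPM (log axis) of the 32 members with a mean of 1 TPM or more, grouped by class, with filled circles for library 2 and open circles for library 1 joined by a line. Timp2, Timp3 and Timp4 lie furthest right in both libraries, and Mmp15, Mmp17 and Adamtsl2 have the longest lines, with 7.14, 2.16 and 3.90 TPM in library 2 against 0.15, 0.07 and 0.10 TPM in library 1.

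When TPM was rescaled without the mitochondrial genes and their copies, the family summed to nearly the same level in both libraries, 976 TPM in library 2 against 949 TPM in library 1. This rescaling multiplies all classes of a library by the same factor, so the share of each class within a library cannot change. TIMPs then summed to 514 TPM in library 2 against 584 TPM in library 1, MMPs to 270 TPM in library 2 against 199 TPM in library 1, and ADAMTS proteases to 148 TPM in library 2 against 147 TPM in library 1. The order of the 4 classes was the same in both libraries, and the rescaling cannot alter it.

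**Figure D2:**
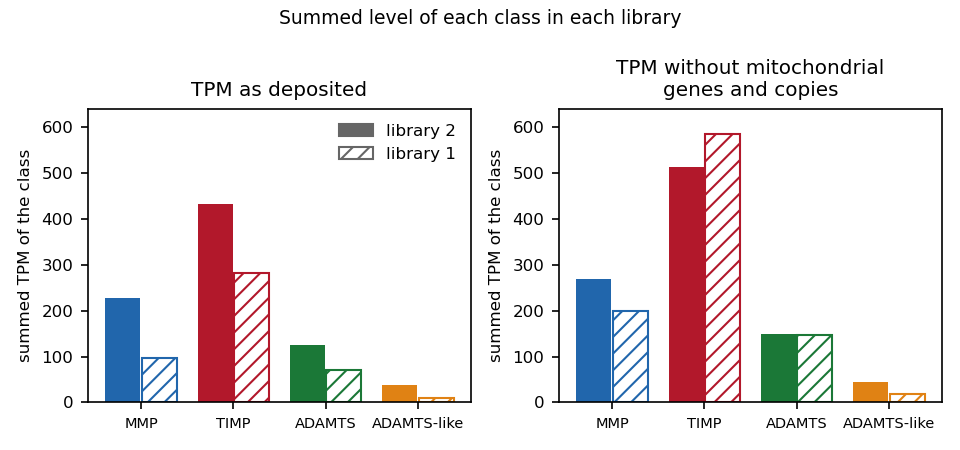
Summed TPM of each class, as deposited (left) and after rescaling without mitochondrial genes and copies (right), with filled bars for library 2 and hatched bars for library 1. TIMPs are highest in both libraries, and the rescaling cannot alter the order of classes within a library. The rescaled ADAMTS bars are nearly level at 148 TPM in library 2 against 147 TPM in library 1.

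Timp2 was the most abundant member on average, with 185 TPM in library 2 against 109 TPM in library 1, above 97.0% of protein-coding genes by mean level. TIMP-2 inhibits many MMPs and also bridges MMP-14 to the precursor of MMP-2, which starts the activation of that gelatinase. Timp3, whose protein stays bound to the matrix and inhibits several ADAMTS proteases as well as MMPs, had 93.3 TPM in library 2 against 116 TPM in library 1. Timp4, known for high expression in fat and heart, had 142.77 TPM in library 2 against 55.04 TPM in library 1. The order of these 3 genes differed between the libraries: Timp2, Timp4 and then Timp3 in library 2, but Timp3, Timp2 and then Timp4 in library 1. Timp1, a soluble inhibitor often induced in inflamed tissue, was far below them at 10.7 TPM in library 2 against 2.35 TPM in library 1, from 97 counts in library 2 and 27 in library 1. Timp4 exceeded Timp1 by 13.4-fold in library 2 and 23.4-fold in library 1.

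Matrilysin (Mmp7) led the proteases on average, with 54.9 TPM in library 2 against 28.5 TPM in library 1. Its protein is a small MMP made mainly by glandular epithelia. Epithelial markers summed to 556 TPM in library 2 against 130 TPM in library 1, beside the epididymis markers given above, and their part in the Mmp7 level was not tested. Mmp12, the elastin-cleaving macrophage elastase, had 17.8 TPM in library 2 against 34.0 TPM in library 1. Mmp12 thus stood at 0.325 times the TPM of Mmp7 in library 2 and 1.19 times in library 1. Both lie in a run of 10 MMP genes at chr9:7272514-7699585, and the other 8 genes there (Mmp13, Mmp1b, Mmp3, Mmp1a, Mmp10, Mmp8, Mmp27 and Mmp20) ranged from 0 to 1.34 TPM in library 2 and from 0 to 0.73 TPM in library 1.

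Mmp14, the membrane-anchored MT1-MMP that cuts fibrillar collagen at the cell surface, had 51.3 TPM in library 2 against 10.2 TPM in library 1. The other membrane-anchored MMPs were much lower. Mmp15 had 7.14 TPM in library 2 against 0.15 TPM in library 1, Mmp17, held by a lipid anchor, had 2.16 TPM in library 2 against 0.07 TPM in library 1, and Mmp16, Mmp24 and Mmp25 stayed under 1 TPM in both. Of the gelatinases, which digest denatured collagen and basement membrane, Mmp2 had 24.6 TPM in library 2 against 3.42 TPM in library 1, and Mmp9 had 7.67 TPM in library 2 against 4.56 TPM in library 1. The 4 collagenase genes (Mmp1a, Mmp1b, Mmp8 and Mmp13) summed to 0.99 TPM in library 2 against 1.27 TPM in library 1.

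Among the remaining MMPs, Mmp23, which is anchored by its propeptide and released when that is cut, had 26.8 TPM in library 2 against 1.47 TPM in library 1, from 341 counts in library 2 and 27 in library 1. Mmp19 had 12.6 TPM in library 2 against 6.78 TPM in library 1. Mmp28 (epilysin) had 11.3 TPM in library 2 against 2.28 TPM in library 1. The stromelysin-3 gene Mmp11, whose enzyme is activated inside the cell by furin, had 7.50 TPM in library 2 against 1.58 TPM in library 1, and stromelysin-1 (Mmp3) had 1.34 TPM in library 2 against 0.73 TPM in library 1. Exons of Mmp19, Mmp28 and Mmp11 overlap exons of Tmem198b, 1700020L24Rik and Chchd10 on the opposite strand. Use of strand in the counting was not stated, and how reads of such pairs were assigned was not tested. The counts of all 51 members were whole within 0.005 in both libraries, with no fraction from reads shared with another gene. Chchd10 itself had 628 counts in library 2 and 1 in library 1. Exons on opposite strands also overlap for Timp3 with Syn3 (43 counts in library 2 and 25 in library 1) and Timp4 with Syn2 (497 in library 2 and 313 in library 1). Further such pairs are Adamts7 with Tbc1d2b, Adamts9 with A730049H05Rik, Mmp24 with BC029722 and Mmp12 with Mmp1b.

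Among the ADAMTS proteases, those that cut aggrecan, versican and related proteoglycans held the largest part, with 62.1 TPM in library 2 against 54.5 TPM in library 1 over 7 genes. Adamts5, the main aggrecan-cleaving enzyme of mouse cartilage, had 21.5 TPM in library 2 against 27.8 TPM in library 1. Adamts1 had 15.3 TPM in library 2 against 10.9 TPM in library 1. Its neighbour on chromosome 16 is Adamts5, which exceeded it 1.41-fold in library 2 and 2.55-fold in library 1. Adamts9 had 13.1 TPM in library 2 against 9.78 TPM in library 1, and Adamts15 had 9.62 TPM in library 2 against 4.42 TPM in library 1. Adamts4 was lower, at 1.53 TPM in library 2 against 0.86 TPM in library 1, and Adamts8 and Adamts20 were under 1 TPM in both.

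The procollagen aminopropeptidase gene Adamts2, whose enzyme trims the amino end of fibrillar procollagens, had 23.9 TPM in library 2 against 6.23 TPM in library 1. Its relatives were lower: Adamts14 had 2.37 TPM in library 2 against 0.20 TPM in library 1, and Adamts3 had 0.32 TPM in library 2 against 0.39 TPM in library 1. Adamts10, tied to fibrillin microfibrils by the human disease its mutations cause, had 25.6 TPM in library 2 against 2.85 TPM in library 1. Of the proteases that cut cartilage oligomeric matrix protein, Adamts12 had 5.05 TPM in library 2 against 3.86 TPM in library 1, and Adamts7 had 1.44 TPM in library 2 against 0.42 TPM in library 1. Adamts6 had 1.26 TPM in library 2 against 1.53 TPM in library 1, and Adamts16 had 1.55 TPM in library 2 against 0.50 TPM in library 1. Adamts13, the protease of von Willebrand factor, had 0 counts in both libraries, which allows up to 0.0837 TPM in library 2 against 0.0656 TPM in library 1 at a floor of 3 counts.

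The ADAMTS-like genes, several of whose products bind fibrillin, were led on average by Adamtsl4, at 13.8 TPM in library 2 against 1.88 TPM in library 1. Adamtsl1 had 9.36 TPM in library 2 against 3.21 TPM in library 1. Adamtsl5 had 7.83 TPM in library 2 against 0.60 TPM in library 1. Adamtsl3 had 2.23 TPM in library 2 against 3.44 TPM in library 1, the only one of the 5 with the lower TPM in library 2 and the highest of them in library 1. Both traits rest on the 497-base Adamtsl3-202, given 1.9 TPM in library 1 from 10.05 counts. The longer coding Adamtsl3-203 had 2.08 TPM in library 2 against 1.45 TPM in library 1. Adamtsl2 had 3.90 TPM in library 2 against 0.10 TPM in library 1, from 131 counts in library 2 and 6 in library 1.

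The 19 members with a mean under 1 TPM are Adamts7, Adamts8, Mmp27, Adamts19, Mmp1a, Adamts3, Mmp1b, Mmp16, Adamts17, Mmp13, Adamts20, Mmp25, Mmp8, Adamts18, Mmp24, Mmp10, Mmp20, Adamts13 and Mmp21. They ranged from 0 to 1.44 TPM in library 2 and from 0 to 0.66 TPM in library 1. Mmp21, like Adamts13, had 0 counts in both libraries. Mmp8, the neutrophil collagenase, had 1 count in library 2 and 8 in library 1 (neutrophil markers are given above; their part was not tested).

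Inhibitor exceeded protease by summed TPM in both libraries, by a margin that differed between them. The TIMPs stood at 1.91 times the MMPs in library 2 and 2.94 times in library 1, and at 1.23 times the MMPs and ADAMTS proteases together in library 2 and 1.69 times in library 1. Timp2 stood at 3.62 times Mmp14 in library 2 and 10.7 times in library 1. Mmp14 in turn stood at 2.09 times Mmp2 in library 2 and 2.97 times in library 1. These are ratios of RNA levels per length within a library and say nothing of active enzyme.

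The libraries were then compared gene by gene, as a measure of how far the level of each member depends on the library. Counts were scaled by TMM, and a gene was called where an exact binomial test of its 2 counts gave a Benjamini-Hochberg adjusted p below 0.05 over all 18275 genes tested and the change was at least 2-fold. Only the error of counting within this pair of libraries enters the test. Of 45 members with at least 10 counts in sum, 18 were called higher in library 2, against 30.1% of all genes tested, and 6 lower, against 18.4%. With scaling by total counts, which moves every log2 ratio by 0.44, 20 members were higher and 2 lower, and 6789 genes were higher and 1176 lower in place of 5504 and 3361. The median log2 ratio of library 2 over library 1 was 0.38 over the members and 0.02 over all genes tested.

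Mmp15 had the highest ratio of the called members, 398 counts in library 2 and 11 in library 1, a log2 ratio of 4.73 (95% exact interval 3.93 to 5.80). Mmp17 followed with 116 counts in library 2 and 5 in library 1 (4.02, 2.89 to 5.80), and Adamtsl2 with 131 in library 2 and 6 in library 1 (3.95, 2.90 to 5.53). Other members called higher were Mmp23 (3.25, 2.71 to 3.89), Adamts10 (2.29, 2.06 to 2.53), Mmp2 (2.10, 1.86 to 2.35), Mmp14 (1.59, 1.44 to 1.75), Timp1 (1.44, 0.83 to 2.13) and Adamts2 (1.20, 1.08 to 1.33). Mmp11 (2.17, 1.64 to 2.79), Adamtsl5 (2.18, 1.68 to 2.76), Adamtsl4 (1.71, 1.42 to 2.01), Mmp28 (1.49, 1.20 to 1.79), Mmp9 (1.48, 1.13 to 1.85) and Adamtsl1 (1.04, 0.82 to 1.26) were also higher, as were the less covered Adamts14, Adamts7 and Adamts17. Mmp12 had the lowest ratio of called members with at least 20 counts on average, with 349 counts in library 2 and 779 in library 1 (-1.54, -1.73 to -1.36). Adamts5 (-1.11, -1.19 to -1.04), Timp3 (-1.05, -1.10 to -1.0) and Adamts6 (-1.02, -1.45 to -0.60) were also called lower, as were the sparse Mmp27 (8 counts in library 2 and 17 in library 1) and Mmp16 (6 in library 2 and 25 in library 1). Timp2 (-0.12, -0.17 to -0.08), Timp4 (0.64, 0.54 to 0.74), Mmp7 (0.21, 0.03 to 0.39), Adamts1 (-0.29, -0.42 to -0.15) and Adamts9 (-0.36, -0.49 to -0.24) stayed under 2-fold. Mmp19 (0.15, -0.04 to 0.35), Adamts15 (0.38, 0.21 to 0.56), Adamts12 (-0.35, -0.55 to -0.15) and Adamtsl3 (-0.30, -0.59 to -0.00) did so too. The higher TPM of Timp2 and Adamts1 in library 2 therefore went with TMM-scaled counts that were not higher there, although with total counts their log2 ratios were 0.31 and 0.15.

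The ratio moved with the GC content of the transcripts, among the members as among all genes. Across the 45 members tested, Pearson's r was 0.818 and Spearman's rho 0.865; over all 18147 genes with a GC value rho was 0.859. Genes within these libraries are not independent replicates, and this is a description. Of 14 members under 48% GC, none was called higher and 6 were lower, against 0.9% and 42.7% of all genes in that range, with a median log2 ratio of -1.03 for members and -0.94 for all genes. Of 20 members at 54% GC or more, 16 were higher and none lower, against 82.4% and 0.4% of all genes in that range, with a median of 1.93 for members and 2.37 for all genes. Between these, 2 of 11 were higher and none lower, against 22.9% and 3.2% of all genes, and the medians were 0.38 for members and 0.32 for all genes.

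**Figure D3:**
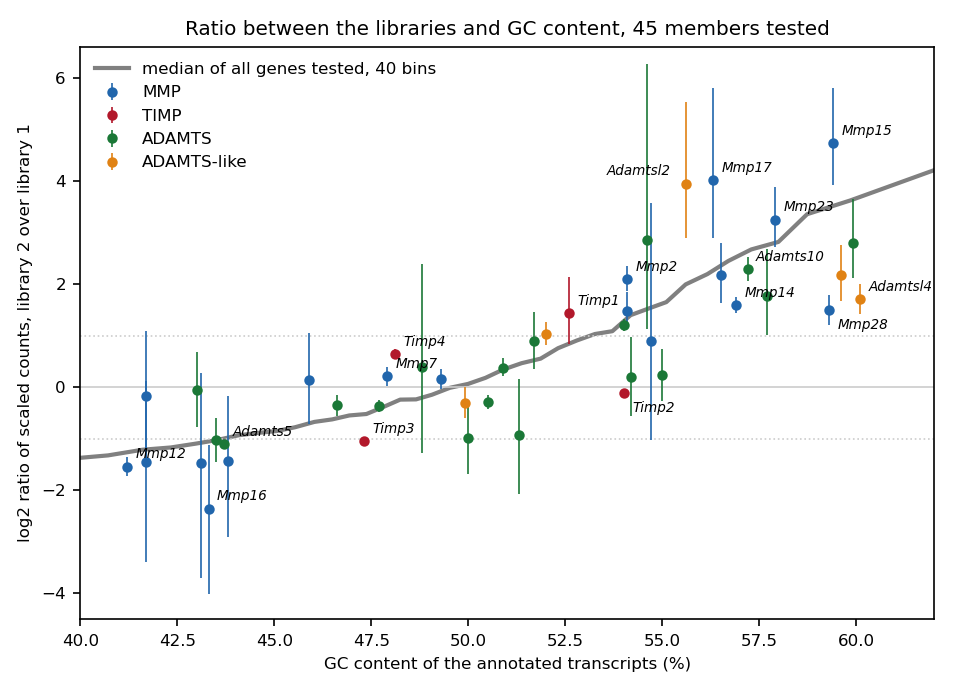
Log2 ratio of scaled counts, library 2 over library 1, against GC content for the 45 members tested, with 95% exact intervals for counting error and the median of all genes in 40 GC bins as a grey line; dotted lines mark 2-fold. Members follow the line, with Mmp15, Mmp17 and Adamtsl2 above it and Timp2, Mmp28 and Adamtsl4 below it.

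With the trend of all genes removed, 4 members were called higher (8.9%, against 9.49% of all genes) and 8 lower (17.8%, against 8.22%). Of the 18 members higher before, 3 were higher again (Mmp15 at 1.21, Mmp17 at 1.75 and Adamtsl2 at 1.96), and Adamts19 was added at 1.04. Mmp28 and Adamtsl4, each at -2.00, and Adamtsl5, at -1.38, had been called higher and were now lower. Timp2 was lower at -1.42, where all genes of its GC content had a median of 1.30, and so were Adamts4 (-1.39), Adamts20 (-1.35), Adamts8 (-1.20) and Adamts3 (-1.06). These ADAMTS calls rest on few counts. Adamts4 had 86 in library 2 and 56 in library 1, and Adamts20 had 13 in library 2 and 19 in library 1. Adamts8 had 39 in library 2 and 26 in library 1, and Adamts3 had 32 in library 2 and 49 in library 1. None of the 6 members called lower before was called again: Mmp12 came to -0.29, Adamts5 to -0.12, Timp3 to -0.53, Adamts6 to 0.01 and Mmp27 to -0.44, while Mmp16 was still past 2-fold at -1.30 but sparse. Mmp14 turned to -0.94, Adamts10 to -0.33, Mmp11 to -0.20 and Adamts2 to -0.07, all not called.

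Transcript shares, the percent of a gene's TPM that the authors' estimate gives each annotated transcript, were compared for the 8 highest members and for the 4 further members with a mean of 1 TPM or more whose estimated mean length differed more than 1.5-fold between libraries. Timp4, Mmp7, Mmp14 and Adamts5 have a single transcript in the deposited estimates. The full-length Timp2-201 took 88.3% of Timp2 in library 2 and 100% in library 1, with the rest in the 718-base Timp2-202. Timp3-201 took 99.7% in library 2 and 99.5% in library 1, and Adamts2-201 took 91.8% in library 2 and 90.9% in library 1. Mmp12 was divided: the coding Mmp12-203 held 41.7% in library 2 and 60.8% in library 1, and Mmp12-204, annotated as a target of nonsense-mediated decay, held 33.7% in library 2 and 17.9% in library 1.

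Mmp9 differed most. The coding Mmp9-201 (3175 bases) held 100% of the gene's TPM in library 2 and 6.74% in library 1, where the processed transcript Mmp9-204 (1125 bases) held 93.3% from 68.3 counts. The coding form alone had 7.67 TPM in library 2 against 0.31 TPM in library 1, so most of the Mmp9 level of library 1 was assigned to a form not annotated as coding. Mmp11-203 took 49.0% of Mmp11 in library 1 from 1.99 counts, and Adamtsl3-202 (497 bases) took 55.1% of Adamtsl3 in library 1 from 10.1 counts. Retained-intron Adamtsl5-203 took 26.2% of Adamtsl5 in library 2 and 85.7% in library 1. The rest of Adamtsl5 in library 1 was Adamtsl5-204 (14.3%), also a retained intron. The coding Adamtsl5-202 and Adamtsl5-201 held 41.0% and 10.1% in library 2 and 0% each in library 1. No replicate check exists for these shares, and short transcripts gain a large share from few counts.

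**Figure D4:**
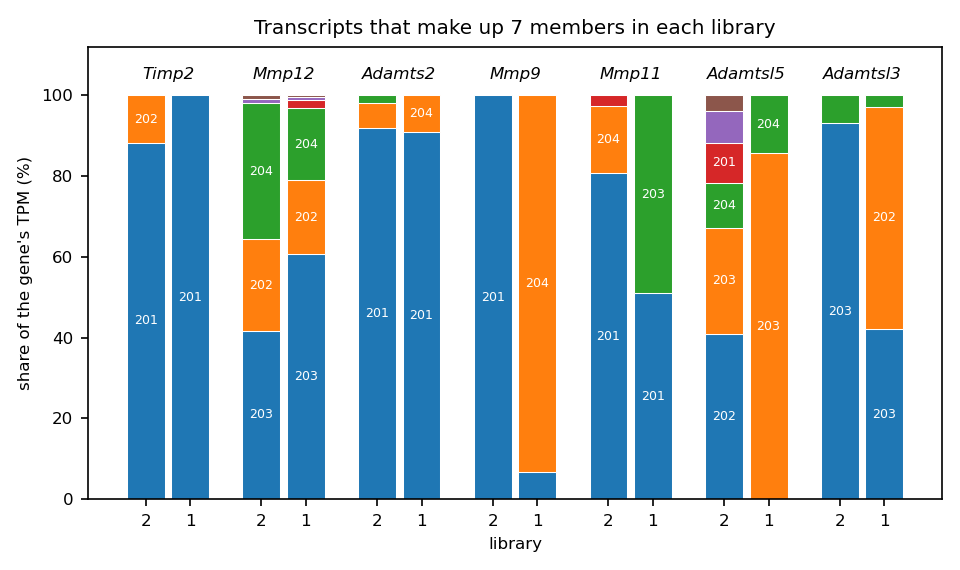
Share of each gene's TPM (percent) by annotated transcript for 7 members, with the bar of library 2 left of that of library 1; numbers in the bars are transcript suffixes, and colours are set within each gene. Mmp9-201 fills the bar of library 2, and Mmp9-204 takes 93.3% of the bar of library 1.

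Genes that act on or beside the family were read from lists, whose calls stand beside shares of 30.1% higher and 18.4% lower over all genes tested. Among 14 activators and regulators, 11 reached 1 TPM in both libraries, and of 12 tested 5 were called higher and none lower (4 higher and 1 lower with the GC trend removed). Basigin (Bsg), an inducer of MMP expression, had 438 TPM in library 2 against 134 TPM in library 1. Lrp1, the receptor that clears protease and inhibitor complexes, had 157 TPM in library 2 against 11.5 TPM in library 1, and urokinase (Plau) had 35.4 TPM in library 2 against 14.8 TPM in library 1. Furin, which removes the propeptide of Mmp14 and Mmp11, had 44.8 TPM in library 2 against 1.41 TPM in library 1. Plasminogen (Plg) had 0 counts in both.

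Among 14 matrix substrates, 13 were tested, 4 were called higher and 1 lower (1 higher and 2 lower with the GC trend removed), with a median log2 ratio of 0.33. Decorin (Dcn) had 852 TPM in library 2 against 982 TPM in library 1, Col3a1 had 431 TPM in library 2 against 347 TPM in library 1, and Col1a2 had 235 TPM in library 2 against 118 TPM in library 1. Versican (Vcan), a substrate of Adamts1, Adamts5 and Adamts9, was the one called lower, with a log2 ratio of -1.34 (-1.47 to -1.22) and levels of 11.5 TPM in library 2 against 12.8 TPM in library 1; with the GC trend removed it was at -0.45 and not called. Elastin (Eln), the one still called higher with the GC trend removed, had 1318 counts in library 2 and 1 in library 1. Its log2 ratio was 9.39 (7.50 to 15.28), and 6.75 with the trend removed. Aggrecan (Acan), neurocan (Ncan) and brevican (Bcan) were all under 0.2 TPM in both libraries.

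Among 9 other genes of procollagen processing, 3 of 8 tested were higher and 1 lower (0 higher and 1 lower with the GC trend removed), led in mean level by P4hb (441 TPM in library 2 against 195 TPM in library 1), the collagen chaperone Serpinh1 (142 TPM in library 2 against 35.1 TPM in library 1) and Pcolce (65.1 TPM in library 2 against 6.97 TPM in library 1). Among 12 fibrillin microfibril genes, 7 were higher and none lower (2 higher and 1 lower with the GC trend removed), with a median log2 ratio of 2.32 and a median GC content of 57.2%, in the range where 82.4% of all genes were higher. The highest by mean over the libraries were Ltbp4 (147 TPM in library 2 against 1.34 TPM in library 1), Mfap5 (52.2 TPM in library 2 against 35.2 TPM in library 1) and Ltbp3 (78.1 TPM in library 2 against 5.57 TPM in library 1). With the GC trend removed, the medians were 0.52 for activators and regulators, -0.27 for substrates, -0.02 for procollagen processing and -0.54 for microfibril genes.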

How the data were processed

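Polyadenylated RNA of 1 adipose biosample was measured in 2 technical libraries. The authors deposited expected counts, TPM and FPKM per gene and per transcript, and for each transcript its percent of the gene's TPM, per the file headers. The text deposited beside the tables names mm10 and the M4 annotation. For the aligner, the quantifier and the strand setting, nothing is given in the sources used here; the columns carry RSEM's names. FPKM as deposited by the authors served only as an alternative detection measure.

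Symbols, coordinates, coding sequence and GC content came from GENCODE M21 on the same assembly, with 42462 of 43346 identifiers matched and 99.3% of tested genes given a GC value. Identifiers without a symbol held 0.116% of the counts in library 2 and 0.148% in library 1. Members' counts were whole within 0.005 in both libraries. Expected counts were rounded for tests. Genes with 10 or more counts in sum were put to an exact two-sided binomial test given the sum, with TMM sizes from edgeR and Benjamini-Hochberg adjustment, and called at an adjusted p below 0.05 and 2-fold. Log2 ratios added 0.5 to each count. Intervals are 95% Clopper-Pearson. Since PCR reads lacking molecular identifiers are no independent molecules, intervals and the floor of 3 counts cover counting error only. The GC trend was the median ratio in 40 bins. The exact test was also run on simulated counts, and without a GC trend it called 0.006% of unchanged genes. With a simulated trend of 0.2 log2 per percent GC, it called 43.5% of unchanged genes with the trend left in. With that trend removed, it called 0.09%. The main calls between the libraries were made with the trend left in. In the zinc site search, the eighth codon was left free after a search with glycine alone had been run.

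Members and lists were chosen with earlier results of these data known. Named were members with a mean of 1 TPM or more with each library's level, all other members by range, ratios of members with at least 100 counts on average and of TIMPs, the highest and lowest called ratios above 20 counts, and 3 genes of each list by level. Furin, Plg, Eln, the proteoglycans, Adamts6 and other low members given with counts were named after their values were seen. So were isoforms of the 4 further members at a mean of 1 TPM or more with unequal length. Alternatives were other scalings, filters, pseudocounts, posterior means, removal of the GC trend or of mitochondrial genes, edgeR's exact test at a preset dispersion (0.01), and either library by itself. R 4.3.3, edgeR 4.0.16, DESeq2 1.42.0 (size factors only), Python 3.11.15, numpy 2.4.6, scipy 1.17.1, pandas 2.3.3 and matplotlib 3.10.9 were used.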

Additional observations from a re-analysis of the deposited data

How the results depend on the processing

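No paired analysis was possible because there is a single group of 2 technical libraries. With the GC trend removed, 1722 genes were higher and 1492 lower in library 2, 4 members were higher, the median ratio of the members turned from 0.38 to -0.12, and the log2 ratio turned in Mmp14 (-0.94), Adamts2 (-0.07), Adamts10 (-0.33), Adamtsl4 (-2.00), Mmp28 (-2.00), Mmp11 (-0.20) and Adamtsl5 (-1.38), and in the uncalled Adamts9 (0.06) and Adamts12 (0.26); of the 25 log2 ratios reported by rule, 8 more lost their call, 1 gained it (Timp2) and 9 kept their side of the threshold. With total counts, 1176 genes and 2 members were lower, the median was 0.82, Timp3 (-0.61) and Adamts5 (-0.67) lost their call and Timp4 (1.08) gained one, while the sign turned in the uncalled Timp2, Adamts1, Adamts9, Adamts12 and Adamtsl3. A minimum of 50 counts gave a median of 0.85. DESeq2 size factors, posterior mean counts, no count minimum, the edgeR exact test, other pseudocounts and removal of mitochondrial genes kept the direction and the call of all 25. Without mitochondrial genes, the mean summed TPM was 549 for TIMPs in place of 357 and 148 for ADAMTS proteases in place of 97.9, and 14 of 32 members' mean TPM moved by more than the spread between libraries. With each library alone, 24 to 33 members were at 1 TPM or more, and summed TPM ran from 282 to 432 for TIMPs, 96.1 to 227 for MMPs, 70.95 to 125 for ADAMTS proteases and 9.23 to 37.1 for ADAMTS-like genes. The depth limits members under about 100 counts, whose intervals span over 1 log2 unit in many cases. A second biological replicate would be needed to set any biological spread.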
